A study of Mus musculus with 14 samples.

Results

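A set of 39 interferon-stimulated genes was followed in regulatory T cells (Tregs) of mice, the CD4 lineage that restrains immune responses and is defined by Foxp3. The members were listed by symbol, and each of them was found on the array as 1 transcript cluster (the probes that read 1 gene), among 22203 transcript clusters with 21902 gene symbols. Clariom S mouse arrays were hybridised with RNA of central Tregs (cTregs, sorted as CD4+Foxp3-YFP+ cells low in CD44) and of effector Tregs (eTregs, CD4+Foxp3-YFP+ cells high in CD44). For each subset 4 arrays came from controls and 3 from donors labelled Atg14 knockout (KO), and arrays are written by label and replicate number, as KO eTreg 1. Atg14 is a subunit of the lipid kinase complex that starts autophagy. Both kinds of marrow donor carried a YFP-tagged Cre recombinase driven by the Foxp3 promoter, which acts in Tregs. KO donors carried Atg14 fl/fl and control donors, labelled heterozygous, Atg14 +/fl, so that controls too carry a floxed Atg14 allele that Cre can delete in Tregs. The CD45.2+ donor marrow was mixed with CD45.1+ wild-type marrow and given to irradiated Rag1-/- mice, which lack their own T and B cells but keep other host cells. Spleen and peripheral lymph nodes are named as the source in the series description, and the spleen in the study's methods. In each group the study's methods count as many chimeras as there are arrays, but the labels tie no array to a mouse, and cTregs and eTregs may come from the same chimeras. P values measure the spread between these arrays.

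Type I interferons bind a receptor built from Ifnar1 and Ifnar2, and the kinases Jak1 and Tyk2 then activate a complex that includes Stat2 and Irf9 and binds interferon-stimulated response elements (ISREs) in the promoters of its target genes. The products sense foreign nucleic acid, block viral translation, degrade RNA, attach the ubiquitin-like protein Isg15 to other proteins, or prepare peptides for MHC class I. Interferon-gamma acts through a separate receptor and gamma-activated sequences (GAS) in promoters, and shares some of these targets. T cells carry both receptors and hold a low level of this programme without infection.

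Before the members are described, some facts about the arrays bear on all of them. Atg14 signal was not lower in arrays labelled KO. It was higher by 0.32 ± 0.14 (SE) log2 units in eTregs (limma unadjusted P = 0.0323, adjusted P = 0.550). In cTregs it was higher by 0.35 ± 0.14 (limma unadjusted P = 0.0213, adjusted P = 0.9999). Where the probes lie relative to the deleted part is not given in the sources used here, so this checks nothing about the deletion, and groups are called by their labels. The study checked Atg14 deletion separately, by quantitative PCR on sorted Tregs of KO and control mice. Foxp3 and Cd4 were high on every array (12.7 to 13.1 and 12.5 to 12.7), and in controls eTregs exceeded cTregs in Cd44 by 1.61. Cd44 read 10.60, 11.52 and 11.49 in KO eTreg 1 to 3 against 10.95 to 11.35 in control eTregs and 9.14 to 9.86 over all cTreg arrays. KO eTreg 1 was thus the lowest eTreg array for Cd44, and the bearing of this on the members was not tested. Markers of other cell types were higher in some eTreg arrays labelled KO. The mean log2 signal of 14 monocyte and macrophage markers was 8.39, 10.58 and 10.52 in KO eTreg 1 to 3, against 8.69 to 9.11 in control eTregs and 7.83 to 8.21 over all cTreg arrays. On each array 13 or 14 of the 14 were above the background probes, and their summed log2 level ran from 12.4 to 14.7 in KO eTregs and from 12.8 to 13.2 in control eTregs. C1qa, a complement gene of tissue macrophages, read 8.84, 12.1 and 12.2 in KO eTreg 1 to 3 and 9.66 to 10.3 in control eTregs. The mean of 8 plasmacytoid dendritic cell markers was 10.11, 10.48 and 10.36 in KO eTreg 1 to 3 against 9.73 to 9.85 in control eTregs, with all 8 above background on every array. Siglech, which defines that cell type, read 9.78, 10.79 and 10.65 against 8.37 to 8.86 in control eTregs. The mean of 7 conventional dendritic cell markers was 7.88, 8.39 and 8.85 in KO eTreg 1 to 3 against 7.95 to 8.07 in control eTregs, with 6 or 7 above background on each array and a summed log2 level of 11.07 to 12.34 and 11.06 to 11.22. The mean of 6 Treg markers lay between 11.56 and 11.96 on all arrays. The mean of 7 CD8 T and NK cell markers was 8.68, 9.19 and 9.03 in KO eTreg 1 to 3 against 8.51 to 8.95 in control eTregs. For 6 B cell markers it was 8.54, 8.66 and 8.74 against 8.42 to 8.63. Thus KO eTreg 2 and KO eTreg 3 stood apart in macrophage and conventional dendritic cell markers, and by less in CD8 T and NK cell and in B cell markers. All 3 KO eTreg arrays stood apart in plasmacytoid dendritic cell markers. These cell types also express interferon-stimulated genes, as is known, and their part in the results below was not tested. Results are given with and without KO eTreg 2 and 3, a choice made after seeing the data, which leaves 1 array in that group and takes its spread from the other groups. The array left, KO eTreg 1, lay below all control eTregs in mean macrophage and conventional dendritic cell markers and in Cd44.

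The promoters show which members carry an element for these factors near their start. RefSeq promoters (GRCm38.p6, windows of 300 bases, most of them upstream of the gene's start) were at hand for 30 of the 39 members. The ISRE was searched as GAAANNGAAA (TTTCNNTTTC on the other strand) and the GAS as TTCNNNGAA, which reads the same on both strands, and matches of 1 motif may overlap. An ISRE match stood in 12 of the 30 members (40.0%), namely Stat2, Ddx58, Ifih1, Eif2ak2, Ifit1, Ifit3, Rsad2, Ifitm3, Trim30a, Oas1a, Oas3 and Isg15. Counted by gene in the same way, 3.99% of all 27025 genes with a window held it. A GAS match stood in 8 of the 30 members (26.7%), against 9.55% of all these genes. The stretches below come from members described later. They are printed along the gene's own strand, 5′ to 3′, with ISRE matches in capitals. Ifit1, Ifit2 and Ifit3 are shown as neighbouring genes, of which the called Ifit1 and Ifit2 differed in direction. Isg15 and Oas1a are shown for their overlapping matches. Ifitm3 is shown for the largest difference between labels, and Ifi44 as a called gene without a match in its window.
Ifit1 (chr19:34640735-34640863, plus strand): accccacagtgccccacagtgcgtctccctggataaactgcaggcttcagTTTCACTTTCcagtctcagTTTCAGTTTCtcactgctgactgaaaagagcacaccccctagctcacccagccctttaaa
Ifit3 (chr19:34583323-34583466, plus strand): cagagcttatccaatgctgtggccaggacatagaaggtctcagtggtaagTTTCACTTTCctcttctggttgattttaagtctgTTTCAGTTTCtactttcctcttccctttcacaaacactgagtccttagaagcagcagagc
Ifit2 (chr19:34550584-34550693, plus strand): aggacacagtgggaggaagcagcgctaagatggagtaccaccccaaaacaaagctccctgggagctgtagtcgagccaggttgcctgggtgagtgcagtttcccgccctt
Ifit2 (chr19:34550978-34551087, plus strand): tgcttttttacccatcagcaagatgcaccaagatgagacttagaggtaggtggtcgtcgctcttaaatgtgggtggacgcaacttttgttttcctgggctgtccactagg
Isg15 (chr4:156200825-156200946, minus strand): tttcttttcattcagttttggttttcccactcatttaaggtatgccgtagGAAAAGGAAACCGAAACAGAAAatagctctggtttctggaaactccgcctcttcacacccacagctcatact
Oas1a (chr5:120907526-120907595, minus strand): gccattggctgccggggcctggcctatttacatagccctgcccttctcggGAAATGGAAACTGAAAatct
Ifitm3 (chr7:141010715-141010744, minus strand): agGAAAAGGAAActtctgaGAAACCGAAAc
Ifi44 (chr3:151749911-151750020, minus strand): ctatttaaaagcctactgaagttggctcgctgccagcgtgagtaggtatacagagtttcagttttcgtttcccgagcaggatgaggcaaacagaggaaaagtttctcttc
In Ifit1 the matches begin at -104 and -85, counted in bases from the start, and in Ifit3 at -156 and -122. Isg15 carries a run of 3 overlapping matches from -78, and Oas1a a run of 2 from -20. Both Ifitm3 matches lie just after the start, which is why only the first 30 bases of that transcript are shown. Ifit2 has 2 annotated starts, neither with an ISRE match in its window, and a GAS match begins at -241 of the first of them, outside the stretch printed. No match in a window says only that these letters do not occur in it.

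**Figure D1:**
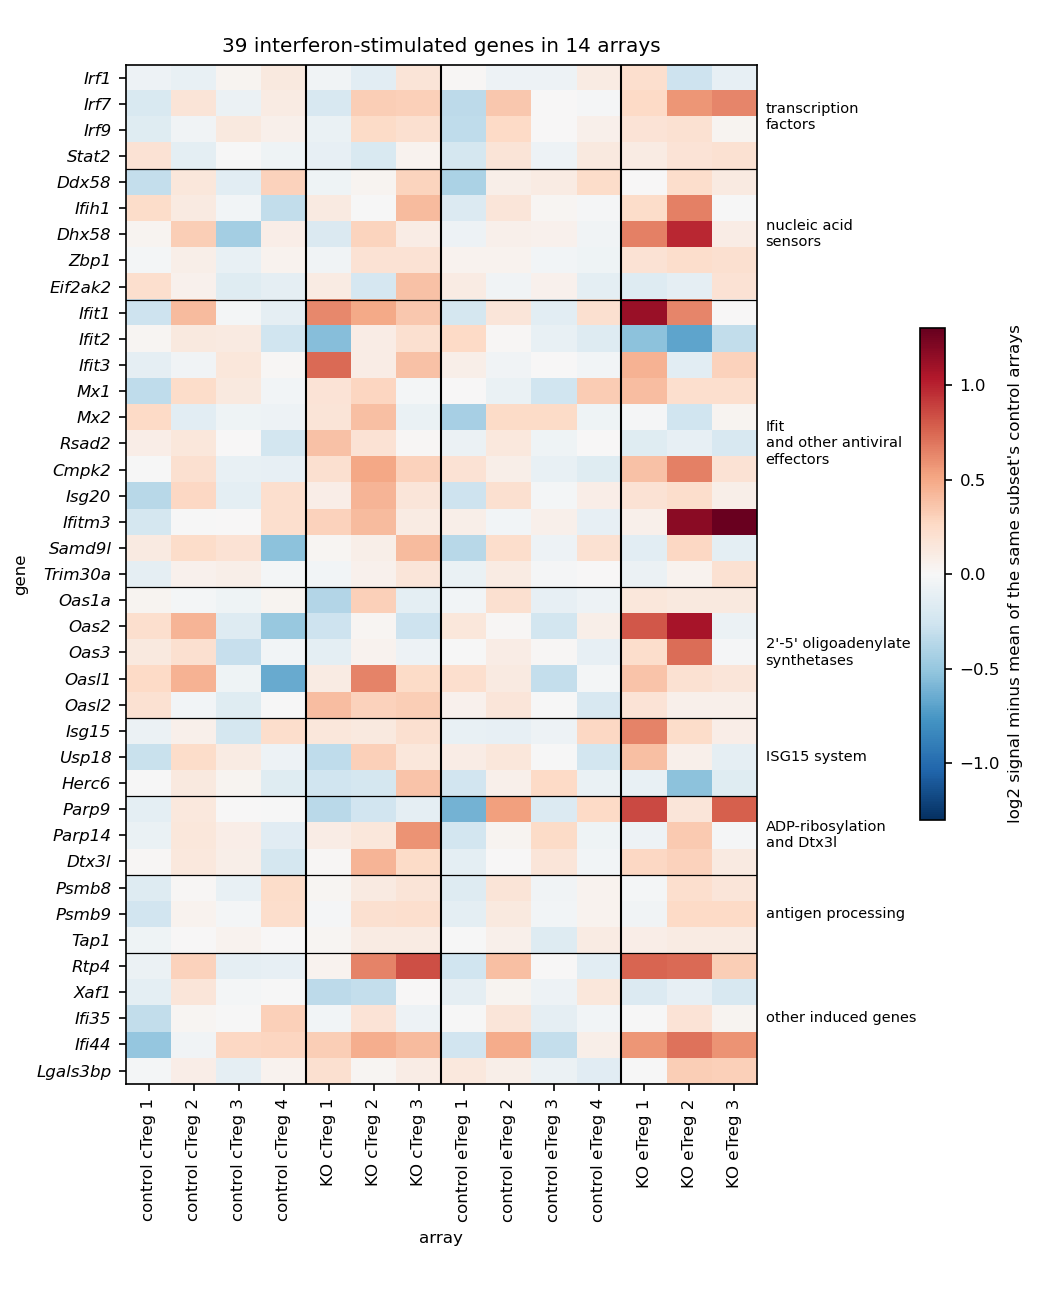
Log2 signal of each of the 39 genes (rows, grouped by role) on each of the 14 arrays (columns), minus the mean of the control arrays of the same subset; red is higher and blue lower. Of the 39 genes, 26, 31 and 28 lay above the control mean in KO eTreg 1 to 3 and 21, 32 and 32 in KO cTreg 1 to 3; among controls it was 33 in control eTreg 2, 30 in control cTreg 2 and 13 to 18 in the other arrays.

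Whether loss of Atg14 within Tregs altered gene expression in eTregs is the question of the first comparison. In eTregs, 7 of the 39 genes were higher in arrays labelled KO at the study's threshold, which asks for a log2 difference of at least 0.5 and an unadjusted limma P below 0.05, and 1 was lower. Higher were Ifitm3, Ifi44, Rtp4, Oas2, Parp9, Ifit1 and Dhx58, and lower was Ifit2. Over all transcript clusters 1.9% were higher and 0.82% were lower by the same threshold. With Benjamini-Hochberg adjustment over all 22203 transcript clusters in limma, 0 of the 39 passed (0.117% of all did), the smallest adjusted P was 0.201, and 12 of the 39 had an unadjusted P below 0.05 against 8.03% of all. Of the 39 differences 32 were above 0, with a median of 0.16, where the median over all transcript clusters was -0.02 and 44.2% were above 0. Without KO eTreg 2 and 3, 26 were above 0 (53.6% of all transcript clusters were) and the median was 0.18 (0.02 over all). In that fit 6 were called, all of them higher, where 1.92% of all were higher and 3.23% lower. In bulk samples a change in the number of cells of a type and a change in RNA per cell cannot be told apart.

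Among antiviral effectors, Ifitm3, a membrane protein that hinders entry of enveloped viruses, differed most. It read 9.42, 10.53 and 10.64 in KO eTreg 1 to 3 and 9.43, 9.32, 9.42 and 9.25 in control eTreg 1 to 4. KO eTreg 2 and 3 were high and KO eTreg 1 lay within the control range. The difference was 0.84 ± 0.22 (SE), or 1.79-fold (adjusted P = 0.201). Both high arrays were those with macrophage markers, and without them the difference was 0.07 and not called, while without KO eTreg 1 it was 1.23 and passed adjustment (adjusted P = 3.68e-05).

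The opposite arrangement was seen for Ifit1, which binds viral RNA that lacks a host-like cap. It read 10.3, 9.85 and 9.22 in KO eTreg 1 to 3 and 8.99, 9.38, 9.08 and 9.43 in control eTreg 1 to 4. KO eTreg 1 was the highest of all 14. Its mean macrophage marker signal lay below that of all control eTregs, while its plasmacytoid dendritic cell markers were raised. For Ifit1, KO eTreg 3 lay within the control range. The difference was 0.58 ± 0.21, with an adjusted P of 0.441. It was 0.32 and not called without KO eTreg 1, and 1.12 without KO eTreg 2 and 3. With array weights it was 0.29 and not called.

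Ifit2, a relative of Ifit1 that also binds RNA, went the other way. It read 8.28, 8.13 and 8.50 in KO eTreg 1 to 3 and 9.07, 8.83, 8.71 and 8.64 in control eTreg 1 to 4, so that every KO array lay below every control. The difference was -0.51 ± 0.17, or 1.42-fold lower (adjusted P = 0.365). It fell under 0.5 in size without control eTreg 1 or without KO eTreg 2 (-0.42 in both cases), with array medians subtracted (-0.497) and with array weights (-0.38), and without KO eTreg 2 and 3 it was -0.53 and missed the P threshold. Ifit3, of the same family, differed by 0.20 ± 0.15, missed both thresholds and had groups that overlapped. In the RefSeq order of genes Ifit2 and Ifit3 are direct neighbours, and 4 genes lie between Ifit3 and Ifit1. Of this family Ifit1 and Ifit2 were called, with differences of opposite sign, and Ifit3 was not.

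**Figure D2:**
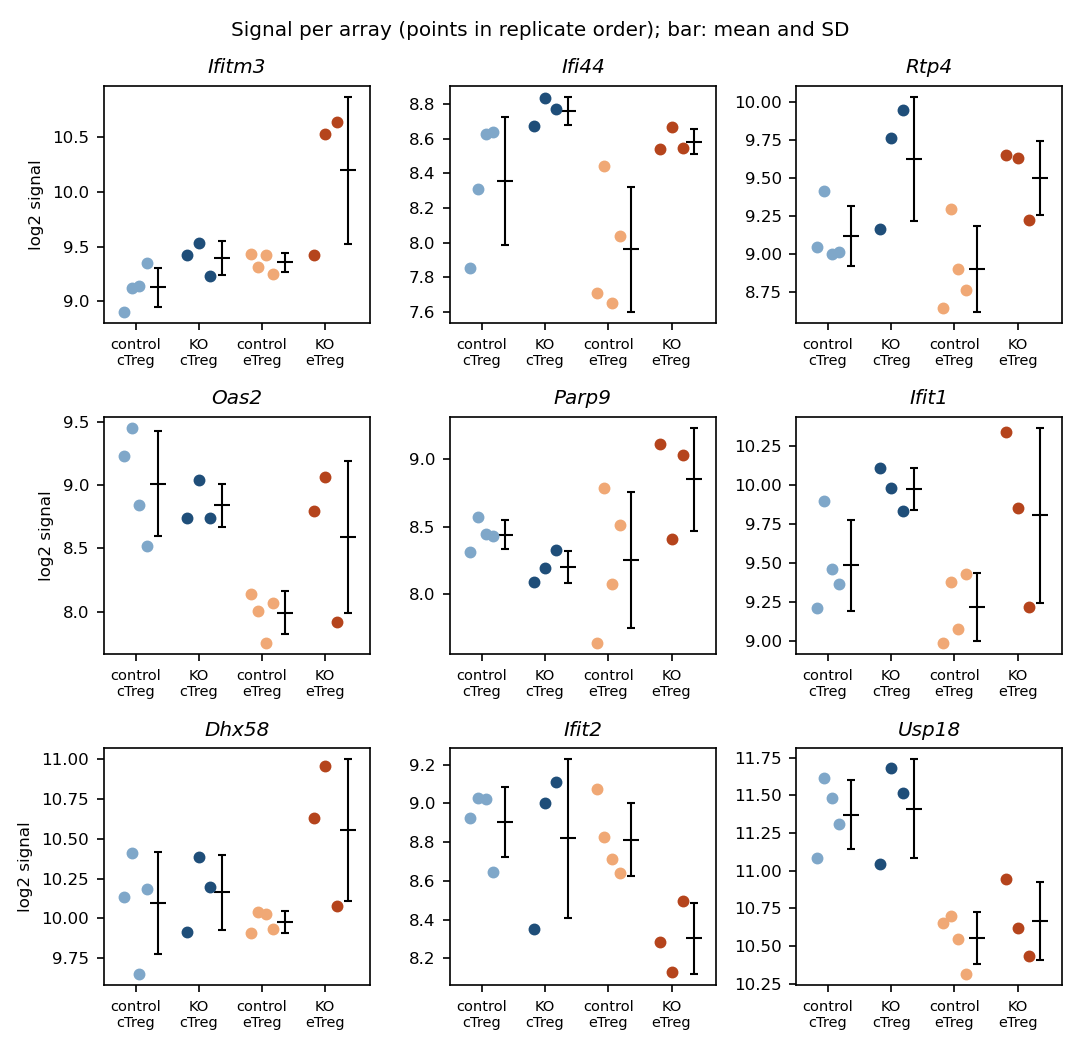
Log2 signal (y axes, each with its own range) of the 8 genes called between labels in eTregs and of Usp18, in the 4 groups; each point is 1 array in replicate order, and the bar gives the mean and SD. Ifitm3 is high on KO eTreg 2 and 3 and Ifit1 on KO eTreg 1, while the 3 KO eTreg arrays of Ifi44 lie together above all 4 controls.

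The remaining effectors differed less. Cmpk2, a mitochondrial nucleotide kinase, read 9.53, 9.81 and 9.3375 in KO eTreg 1 to 3 and 9.3360, 9.22, 9.05 and 8.99 in control eTreg 1 to 4. All KO arrays lay above all controls, KO eTreg 3 barely, and the difference of 0.41 ± 0.13 (adjusted P = 0.341) was under the fold threshold. Its neighbour Rsad2 (viperin, which makes a chain-terminating nucleotide) read 7.04 to 7.13 in KO eTregs and 7.17 to 7.38 in control eTregs. Rsad2 was thus lower without overlap, but its difference of -0.16 ± 0.12 (adjusted P = 0.805) missed both the fold and the P threshold. No gene lies between Cmpk2 and Rsad2 in the RefSeq order. Mx1 and Mx2, GTPases that trap viral nucleocapsids, differed by 0.28 ± 0.15 and -0.08 ± 0.17. Isg20, an exonuclease, differed by 0.17 ± 0.16, Samd9l by 0.00 ± 0.19 and Trim30a by 0.05 ± 0.10.

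Of the 5 nucleic acid sensors, Dhx58 (LGP2, a helicase without signalling domains that tunes the others) was called. It read 10.6, 11.0 and 10.1 in KO eTreg 1 to 3 and 9.91, 10.04, 10.03 and 9.93 in control eTreg 1 to 4. Every KO array exceeded every control, KO eTreg 3 only slightly. The difference was 0.58 ± 0.19 (adjusted P = 0.365), and it was 0.38 and not called without KO eTreg 2, and 0.43 and not called with array weights. Zbp1, which senses left-handed nucleic acid, read 11.17, 11.22 and 11.20 against 11.03, 11.03, 10.96 and 10.94 in controls. It did not overlap either, with a difference of 0.21 ± 0.094 (adjusted P = 0.601). Ddx58 (RIG-I), Ifih1 (MDA5) and Eif2ak2 (PKR, which halts translation on double-stranded RNA) differed by 0.12 ± 0.16, 0.30 ± 0.16 and -0.03 ± 0.14.

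All 5 oligoadenylate synthetase genes had differences above 0, from 0.11 for Oasl2 to 0.60 for Oas2. Oas1a, Oas2 and Oas3 make the second messenger that activates RNase L, and the Oasl proteins resemble them. Oas2 read 8.79, 9.06 and 7.92 in KO eTreg 1 to 3 and 8.14, 8.01, 7.75 and 8.07 in control eTreg 1 to 4. KO eTreg 1 and 2 were high and KO eTreg 3 lay within the control range. The difference was 0.60 ± 0.24 (adjusted P = 0.507). It missed the P threshold without control eTreg 3 (0.52), KO eTreg 1 (0.50) or KO eTreg 2 (0.36) and with array weights (0.41), and was 0.80 without KO eTreg 2 and 3. Oas3 rested most on 1 array, at 8.94 in KO eTreg 2 against 8.44 and 8.20 in the other two, with a difference of 0.31 ± 0.16.

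Rtp4 and Ifi44 were the called genes whose call was kept when any single array was left out, with Ifitm3. Rtp4, a chaperone for some receptors at the cell surface, read 9.66, 9.63 and 9.22 in KO eTreg 1 to 3 and 8.64, 9.29, 8.90 and 8.76 in control eTreg 1 to 4. Only control eTreg 2 reached the range of the KO arrays. The difference was 0.60 ± 0.19 (adjusted P = 0.319), and it was 0.76 without KO eTreg 2 and 3. Ifi44, an antiviral protein that tempers proliferation, read 8.54, 8.67 and 8.55 against 7.71, 8.44, 7.66 and 8.04. Its KO arrays lay above all controls, which were spread widely, and the difference was 0.62 ± 0.19 (adjusted P = 0.307), and 0.58 without KO eTreg 2 and 3, where it missed the P threshold.

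Parp9, a macrodomain protein that works with the ubiquitin ligase Dtx3l, read 9.11, 8.41 and 9.03 in KO eTreg 1 to 3 and 7.63, 8.79, 8.07 and 8.51 in control eTreg 1 to 4. KO eTreg 2 lay inside the control range. The difference was 0.60 ± 0.22 (adjusted P = 0.436), and it missed the P threshold without control eTreg 1 (0.40), KO eTreg 1 (0.47) or KO eTreg 3 (0.51). Without KO eTreg 2 and 3 it was 0.86 and still called. Dtx3l, the direct neighbour of Parp9 in the RefSeq order, differed by 0.23 ± 0.12, and Parp14 by 0.09 ± 0.15. In the ISG15 system, Isg15 itself read 10.3, 9.89 and 9.74 in KO eTregs and 9.56, 9.55, 9.59 and 9.92 in controls, highest in KO eTreg 1, and differed by 0.32 ± 0.14 (adjusted P = 0.580). Usp18, which removes Isg15 and restrains the interferon receptor, differed by 0.12 ± 0.17, and Herc6, the mouse ligase for Isg15, by -0.27 ± 0.16.

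Of the transcription factors, Irf7, which amplifies interferon output, read 10.46, 10.77 and 10.82 in KO eTreg 1 to 3 and 9.85, 10.54, 10.20 and 10.18 in control eTreg 1 to 4. Its difference of 0.49 ± 0.17 (adjusted P = 0.379) was just under the fold threshold, and KO eTreg 1 lay within the control range. Stat2, Irf9 and Irf1 differed by 0.16, 0.14 and -0.05, none past the P threshold. Psmb8 and Psmb9, subunits of the immunoproteasome, and Tap1, which carries peptides into the endoplasmic reticulum, differed by 0.11, 0.16 and 0.10. Of the rest, Xaf1, Ifi35 and Lgals3bp differed by -0.17, 0.07 and 0.21, and none of these 3 passed. Over the 39 genes, 4 were higher without overlap of the groups (Dhx58, Zbp1, Cmpk2 and Ifi44), where 3.01% of all transcript clusters were, and 2 were lower (Ifit2 and Rsad2), where 3.84% were.

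**Figure D3:**
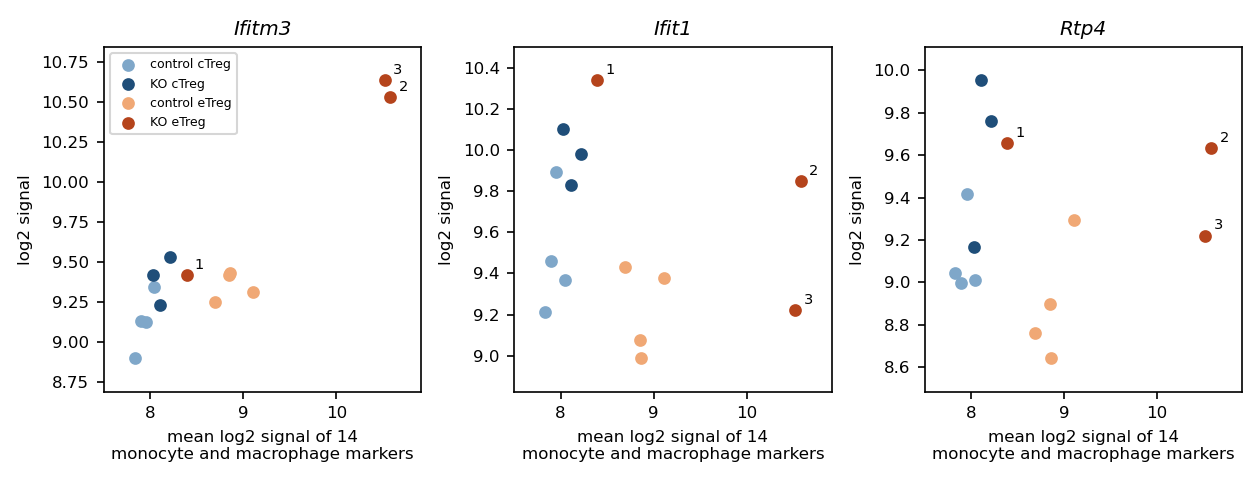
Log2 signal of Ifitm3, Ifit1 and Rtp4 (y axes) against the mean log2 signal of 14 monocyte and macrophage markers (x axes) on the 14 arrays, with the KO eTreg arrays numbered by replicate. Ifitm3 is high on KO eTreg 2 and 3 only, which have marker means of 10.58 and 10.52; Ifit1 is highest on KO eTreg 1, at a marker mean of 8.39; Rtp4 is higher on KO cTreg 2 and 3 than on KO eTreg 1.

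In cTregs the same comparison called 1 gene. Rtp4 was higher in arrays labelled KO, where 0.194% of all transcript clusters were, and 0 of the 39 were lower, where 0.383% were. With adjustment in limma 0 of the 39 passed (0.045% of all did), and 5 had an unadjusted P below 0.05 against 4.01% of all, namely Rtp4, Oasl2, Ifit3, Cmpk2 and Ifit1, each higher. Of the 39 differences 30 were above 0, with a median of 0.12, where the median of all transcript clusters was 0.02 and 54.8% were above 0. Monocyte and macrophage markers averaged 8.03 to 8.21 in KO cTregs and 7.83 to 8.05 in control cTregs, and plasmacytoid dendritic cell markers 9.75 to 9.81 and 9.74 to 9.83.

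Rtp4 read 9.17, 9.76 and 9.95 in KO cTreg 1 to 3 and 9.04, 9.41, 8.998 and 9.01 in control cTreg 1 to 4. KO cTreg 2 and 3 were high, and KO cTreg 1 lay within the control range. The difference was 0.51 ± 0.19 (adjusted P = 0.9999). It dropped under 0.5 without control cTreg 1 (0.49), control cTreg 3 (0.47) or control cTreg 4 (0.48), and lost the P threshold too without KO cTreg 2 (0.44) or KO cTreg 3 (0.35). Ifit1 passed at 0.62 without control cTreg 2 and at 0.56 without KO cTreg 3, and Ifit3 at 0.56 without KO cTreg 2, so that 0 to 2 members were called. With single arrays left out, 0.189% to 0.423% of all transcript clusters were called higher and 0.284% to 0.991% lower.

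Ifit1 read 10.105, 9.98 and 9.83 in KO cTreg 1 to 3 and 9.21, 9.89, 9.46 and 9.37 in control cTreg 1 to 4, so that only control cTreg 2 reached the KO range. Its difference of 0.49 ± 0.21 (adjusted P = 0.9999) was just under the fold threshold. Ifit3 differed by 0.40 ± 0.15 (adjusted P = 0.9999), led by KO cTreg 1 at 9.39, and by 0.24 without that array, where it missed the P threshold. Ifit2 differed by -0.08 ± 0.17, with KO cTreg 1 the lowest cTreg array at 8.35. KO cTreg 1 was thus the highest cTreg array for Ifit1 and Ifit3 and the lowest for Ifit2.

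Groups did not overlap for 3 genes in cTregs, all higher in arrays labelled KO, where 2.7% of all transcript clusters were, and 0 genes were lower without overlap, where 2.35% were. Cmpk2 read 9.2017, 9.49 and 9.29 in KO cTregs against 8.98, 9.2000, 8.90 and 8.88 in controls, so KO cTreg 1 exceeded control cTreg 2 barely, and the difference was 0.34 ± 0.13. Oasl2 read 8.80, 8.70 and 8.71 against 8.59, 8.36, 8.24 and 8.39, and differed by 0.34 ± 0.11. Ifi44 read 8.67, 8.84 and 8.77 against 7.86, 8.31, 8.63 and 8.64, and differed by 0.40 ± 0.19, short of the P threshold. Cmpk2 and Ifi44 thus lay above all controls in both subsets, whose arrays may come from the same chimeras. Oas2 and Parp9, called higher in eTregs, differed by -0.17 ± 0.24 and -0.24 ± 0.22 in cTregs, Ifitm3 by 0.27 ± 0.22 and Dhx58 by 0.07 ± 0.19.

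**Figure D4:**
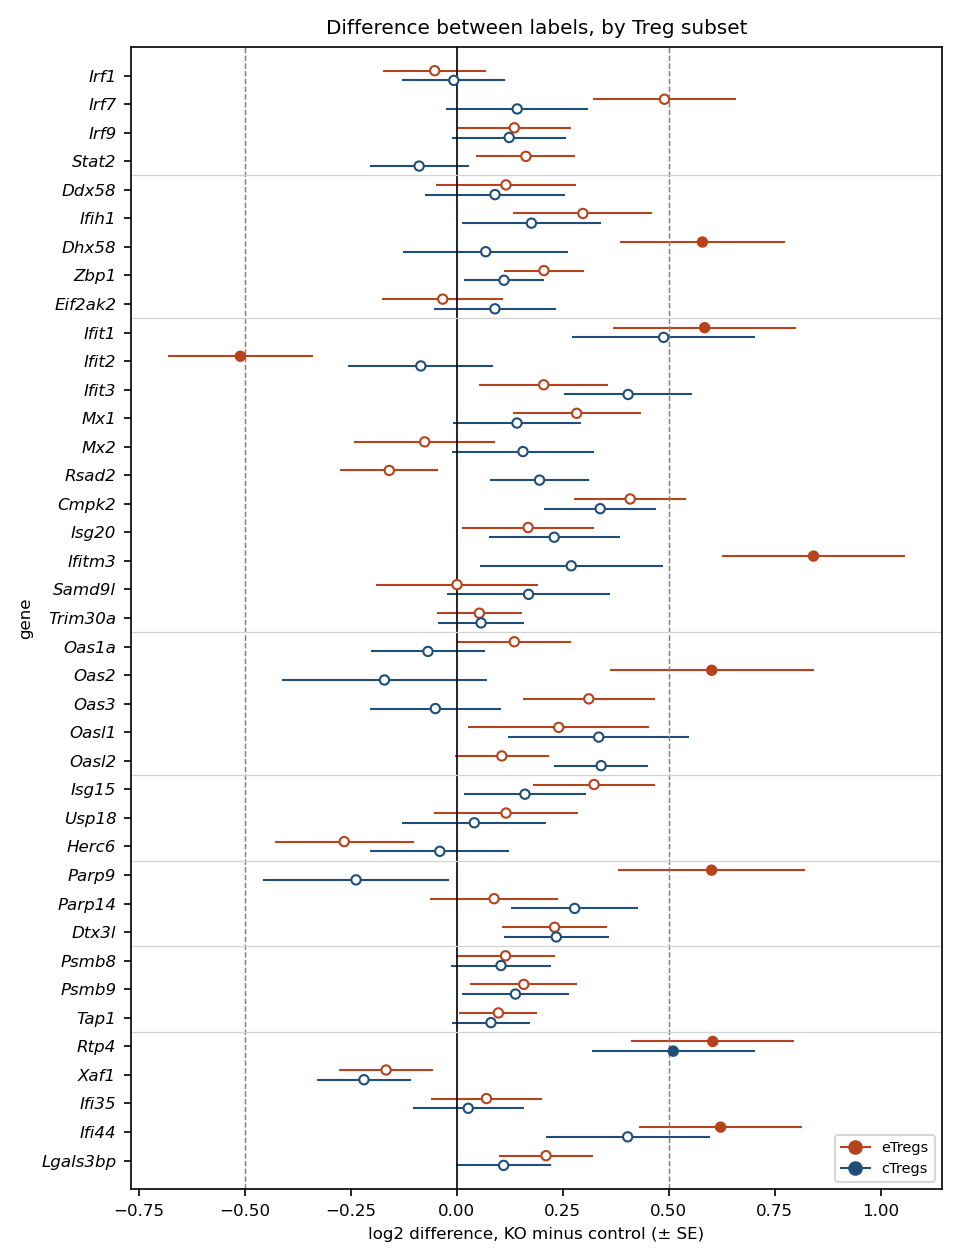
Log2 difference between arrays labelled KO and controls (x axis, ± SE) for the 39 genes (rows, grouped by role) in eTregs (red) and cTregs (blue); filled points passed the study's threshold and dashed lines mark 0.5 in either direction. Most points lie right of 0 in both subsets, while Ifit2 is the gene farthest to the left in eTregs.

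The difference between both effects was tested directly as an interaction, which asks whether the labels differed more in eTregs than in cTregs. Parp9 and Oas2 passed the study's threshold in favour of eTregs, where 1.82% of all transcript clusters did, and 0 genes passed in favour of cTregs, where 1.23% did. With adjustment in limma 0 of the 39 passed, as did 0% of all transcript clusters, the smallest adjusted P among the members was 0.789, and 3 had an unadjusted P below 0.05 against 6.12% of all. Parp9 had an interaction of 0.84 ± 0.31 (adjusted P = 0.789) and Oas2 of 0.77 ± 0.34 (adjusted P = 0.799). The third, Rsad2, had -0.35 ± 0.16 (adjusted P = 0.813), from differences of 0.20 in cTregs and -0.16 in eTregs. Parp9 passed whichever single array was left out, whereas Oas2 lost its call without any 1 of 8 arrays, with values of 0.54 to 0.78. Without KO eTreg 2 and 3 the interaction was 1.099 for Parp9 and 0.97 for Oas2. Ifitm3 (0.57 ± 0.31) and Ifit1 (0.10 ± 0.30) did not pass, and the median over the 39 genes was 0.04, where that of all transcript clusters was -0.03.

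The subsets themselves were compared within each label. Monocyte and macrophage markers also differed between subsets. In controls 13 of 14 were higher in eTregs (median 0.80), and within arrays labelled KO 14 of 14 were (median 1.64). Of all transcript clusters 50.7% and 40.4% were above 0. The part of these cells in the differences between subsets was not tested. In controls, 2 of the 39 genes were lower in eTregs than in cTregs, Oas2 and Usp18, where 1.42% of all transcript clusters were, and 0 were higher, where 3.3% were. Both also passed with adjustment (3.06% of all did). Usp18 read 10.65, 10.70, 10.54 and 10.31 in control eTreg 1 to 4 and 11.08, 11.61, 11.48 and 11.31 in control cTreg 1 to 4. All eTreg arrays lay below all cTreg arrays, and the difference was -0.82 ± 0.16, or 1.76-fold lower (adjusted P = 0.0060). Oas2 read 8.14, 8.01, 7.75 and 8.07 in control eTregs and 9.23, 9.45, 8.84 and 8.52 in control cTregs. Its groups did not overlap either, with a difference of -1.02 ± 0.22, or 2.03-fold lower (adjusted P = 0.0144). Only Usp18 passed with adjustment when control cTreg 1, control cTreg 2 or control eTreg 3 was left out, where the adjusted P of Oas2 reached 0.0600 at most.

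Other members differed between control subsets by less than 0.5. Oas1a and Rsad2 were higher in eTregs without overlap, where 6.12% of all transcript clusters were, and Zbp1, Oas2 and Usp18 were lower without overlap, where 5.02% were. Oas1a read 10.01, 10.26, 9.95 and 9.98 in control eTregs and 9.75, 9.69, 9.66 and 9.75 in control cTregs. It lay higher in every eTreg array, by 0.34 ± 0.12 (adjusted P = 0.207), while Oas2 of the same chromosome 5 cluster lay lower. The difference was -0.48 ± 0.16 for Irf7 (adjusted P = 0.127) and -0.49 ± 0.20 for Oasl1 (adjusted P = 0.271), both close to the fold threshold. When control cTreg 1, control cTreg 3 or control eTreg 2 was left out, 4 or 5 members passed the study's threshold, all lower. In these fits 1.61%, 1.5% and 1.76% of all transcript clusters were lower, and 3.09%, 3.28% and 2.94% higher. The median over the 39 genes was -0.05, where that of all transcript clusters was 0.003.

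Within arrays labelled KO, 3 of the 39 genes were higher in eTregs than in cTregs (Oas1a, Ifitm3 and Parp9), where 4.65% of all transcript clusters were, and 3 were lower (Usp18, Ifit2 and Oasl1), where 1.16% were. With adjustment 1 passed, Usp18, where 2.35% of all did. Usp18 read 10.95, 10.62 and 10.43 in KO eTreg 1 to 3 and 11.04, 11.68 and 11.51 in KO cTreg 1 to 3. The groups did not overlap, although KO eTreg 1 and KO cTreg 1 came close, and the difference was -0.74 ± 0.18 (adjusted P = 0.0408). It was -0.47 and not called without KO eTreg 2 and 3. With adjustment 0 members passed without control cTreg 3 or 4, KO cTreg 3, control eTreg 2 or 3, KO eTreg 2 or KO eTreg 3. Usp18 was lower in eTregs under both labels.

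Oas1a read 10.20, 10.18 and 10.18 in KO eTreg 1 to 3 and 9.33, 10.02 and 9.59 in KO cTreg 1 to 3, a difference of 0.54 ± 0.14 (adjusted P = 0.0619). It was higher in every eTreg array here as in controls, and fell to 0.38 without KO cTreg 1. Parp9 was higher by 0.65 ± 0.24 (adjusted P = 0.201), but missed the P threshold without KO eTreg 1 (0.52) or KO eTreg 3 (0.56). Ifitm3 was higher by 0.80 ± 0.23 (adjusted P = 0.0893), and by 0.03 without KO eTreg 2 and 3.

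Oasl2 differed by -0.46 ± 0.12 between KO eTregs and KO cTregs, with an adjusted P of 0.0509 and a size under the fold threshold. Its KO eTreg arrays read 8.35, 8.24 and 8.24, below all KO cTreg arrays. Ifit2 was lower, with a difference of -0.52 ± 0.18 (adjusted P = 0.186), and lost its call when KO cTreg 2 (-0.43), KO cTreg 3 (-0.37), KO eTreg 2 (-0.43) or both KO eTreg 2 and 3 (-0.54) were left out. Oasl1 was lower, with a difference of -0.59 ± 0.23 (adjusted P = 0.243), and missed the P threshold leaving out KO cTreg 2 (-0.43), KO eTreg 3 (-0.55) or both KO eTreg 2 and 3 (-0.46). Without KO eTreg 2 and 3, 3 members were called, all higher, where 2.95% of all transcript clusters were higher and 2.23% lower. Groups did not overlap for 3 genes higher in KO eTregs (Mx1, Oas1a and Parp9), where 6.46% of all transcript clusters were, and for 5 lower ones (Ddx58, Oasl1, Oasl2, Usp18 and Ifi44), where 7.49% were. The median over the 39 genes was -0.07, where that of all transcript clusters was -0.04.

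**Figure D5:**
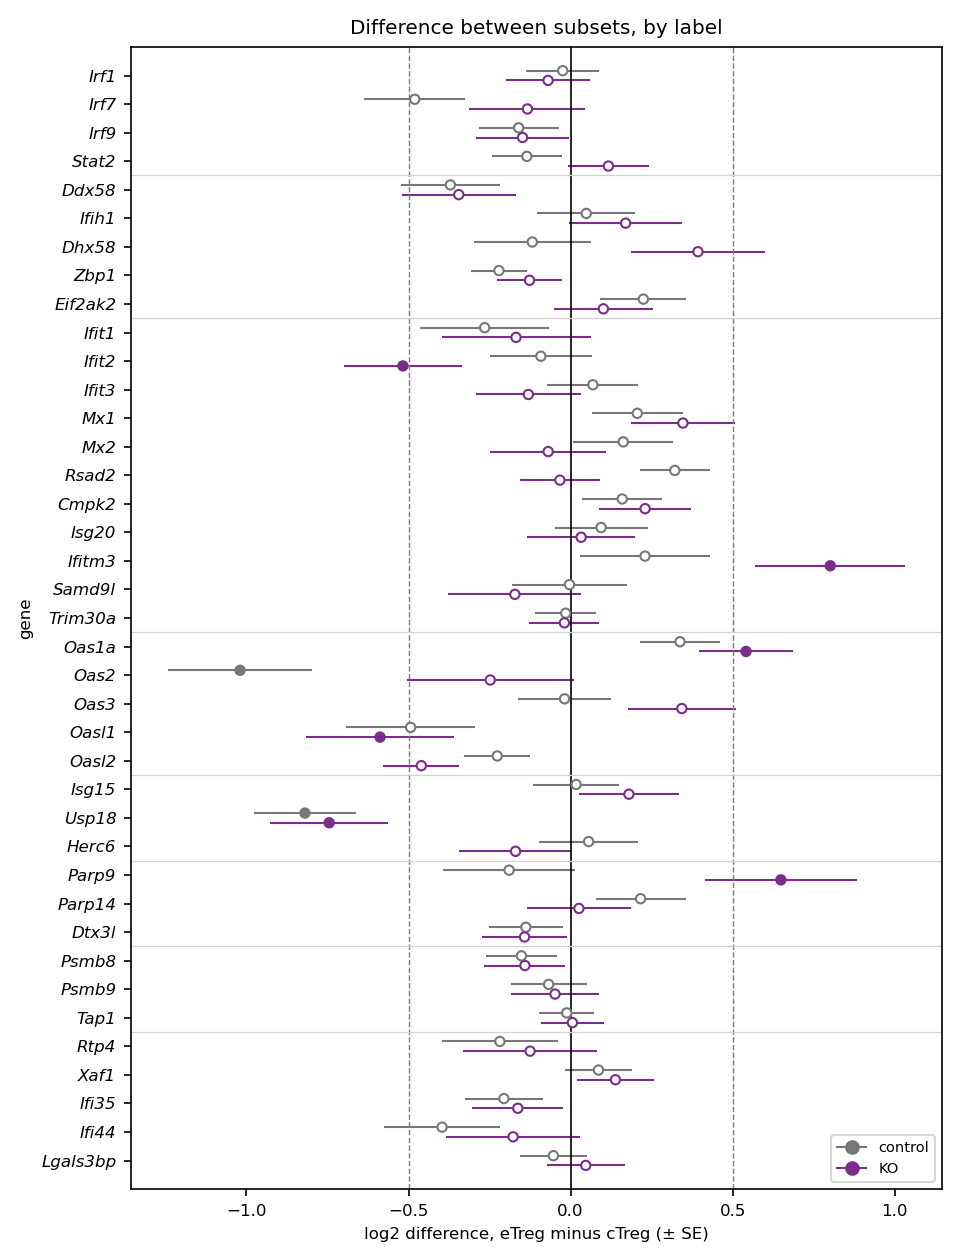
Log2 difference between eTregs and cTregs (x axis, ± SE) for the 39 genes (rows, grouped by role) in controls (grey) and in arrays labelled KO (purple); filled points passed the study's threshold and dashed lines mark 0.5 in either direction. Usp18 lies far left under both labels, whereas Oas2 does so in controls and Ifitm3 and Parp9 lie right of 0.5 in arrays labelled KO.

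The promoter matches were set beside these differences as a description. In eTregs the median difference between labels was 0.18 over the 12 members with an ISRE match (10 above 0) and 0.13 over the 18 members with a window but no match (14 above 0). In cTregs the medians were 0.13 (9 above 0) and 0.13 (14 above 0). Between control subsets the medians were 0.03 and -0.08. The 8 members with a GAS match had a median difference between labels of 0.09 in eTregs and 0.06 in cTregs, against 0.18 and 0.15 over the 22 without. The members with an ISRE match ranged widely in eTregs, from -0.16 for Rsad2 to 0.84 for Ifitm3.

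Across the 14 arrays, with each group's mean removed, a member's signal correlated with the mean of the other members at a median r of 0.44. This was highest for Rtp4 (r = 0.91) and Irf7 (0.74), 11 of the 39 exceeded 0.5, and 6 lay below 0, with Ifit3 lowest (-0.56) and Ifitm3 at -0.22. The median over all transcript clusters was -0.09. These correlations are descriptions across arrays that share their normalisation. The transcript clusters outside the set with the most similar pattern were those of Chd4 (r = 0.91), Zfp143 (0.91), Kctd5 (0.90), Mib1 (0.90) and Gnpda2 (0.89), and Tlr7 (0.89), an endosomal RNA sensor, was among the first 10. They head a ranking of 22203 transcript clusters over 14 arrays, where such values of r can arise from the ranking alone, and no test was run.

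Other genes of the pathway were counted from lists written for it. Over all transcript clusters 1.9% were called higher and 0.82% lower between labels in eTregs, and 0.194% and 0.383% in cTregs. Of 18 ligand genes, 0 passed the study's threshold between labels in either subset. Their differences were small, with 2 of 18 above 0 in eTregs (median -0.11) and 15 of 18 above 0 in cTregs (median 0.13). Of all transcript clusters 44.2% and 54.8% were above 0. Of those past the filter at the 50th percentile of mean signal 50.5% and 48.4% were. The share above 0 thus depended on signal level, and its bearing on the ligand genes was not tested. Ifnb1 differed by -0.04 ± 0.12 in eTregs and 0.13 ± 0.12 in cTregs. Of 20 receptor and signalling genes, 0 passed between labels in either subset, and Ifnar1 and Ifnar2 differed by 0.08 and 0.10 in eTregs. No ligand or receptor gene was thus called between labels.

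Of 18 genes of sensing upstream of interferon, 2 were higher in eTregs labelled KO, where 1.9% of all transcript clusters were. Lower were 0, where 0.82% of all were. Tlr3, an endosomal sensor of double-stranded RNA, differed by 1.03 ± 0.34 (adjusted P = 0.352), and read 6.32, 7.195 and 8.41 in KO eTreg 1 to 3 against 6.17 to 6.36 in control eTregs. These control values and that of KO eTreg 1 lay close to the background probes (medians 6.00 to 6.30). Tlr8 differed by 0.52 ± 0.19 (adjusted P = 0.444), and read 6.68, 7.37 and 7.27 against 6.29 to 7.04, the lowest of them also close to background. Both were high on KO eTreg 2 and 3, the arrays with raised macrophage and conventional dendritic cell markers (the latter highest on KO eTreg 3, as Tlr3 was; their part was not tested), and within the control range on KO eTreg 1.

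Of 38 measured further interferon-stimulated genes (40 listed), 3 were higher in eTregs labelled KO, where 1.9% of all transcript clusters were. Lower were 0 (0.82% of all were), and 0 passed with adjustment in limma (0.117% of all did). The 3 were Ms4a4c, a membrane protein of the CD20 family (0.71 ± 0.17, adjusted P = 0.155), Parp12, which restricts viral translation (0.70 ± 0.17, adjusted P = 0.167), and Bst2, or tetherin, which holds budding virions on the cell (0.55 ± 0.16, adjusted P = 0.262). Ms4a4c read 10.56, 10.23 and 10.56 in KO eTreg 1 to 3 and 9.64, 10.03, 9.63 and 9.64 in control eTreg 1 to 4, so it was high on all 3 arrays labelled KO. Parp12 read 10.85, 11.33 and 11.03 against 10.30, 10.64, 10.21 and 10.32, again without overlap. KO eTreg 1 thus also lay above all controls for both genes. Its mean macrophage marker signal lay below that of all control eTregs and its plasmacytoid dendritic cell markers were raised, and their part was not tested. Bst2 read 11.58, 11.95 and 11.89 against 11.04, 11.56, 11.29 and 11.14, and stands in the plasmacytoid dendritic cell list too. In cTregs 1 of the 38 was higher, Ube2l6, which conjugates Isg15 (0.71 ± 0.28, adjusted P = 0.9999), and 0 were lower. Of all transcript clusters 0.194% were higher and 0.383% lower in cTregs. Of 16 measured MHC class I and interferon-gamma target genes (17 listed), 0 passed between labels in either subset. In eTregs 14 of the 16 differences were above 0, where 44.2% of all transcript clusters were, and in cTregs 13, where 54.8% were.

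Between subsets the pathway lists held larger differences. Macrophage markers were higher in eTregs under both labels as well, as given above, and their part in these differences was not tested. Ifng, the gene of interferon-gamma, was higher in eTregs by 2.24 ± 0.25 within control arrays (adjusted P = 6.2e-05) and by 1.91 ± 0.29 within KO arrays (adjusted P = 0.00182). Ms4a4c was lower in eTregs, with differences of -1.35 ± 0.15 within control arrays (adjusted P = 8e-05) and -0.75 ± 0.18 within KO arrays (adjusted P = 0.0371). Tlr7 and Ifngr2, a chain of the interferon-gamma receptor, were lower in control eTregs, with differences of -1.104 ± 0.25 (adjusted P = 0.0195) and -0.62 ± 0.11 (adjusted P = 0.00244). Ifitm2, a relative of Ifitm3, was higher in eTregs by 0.70 ± 0.16 within control arrays (adjusted P = 0.0207) and by 0.88 ± 0.19 within KO arrays (adjusted P = 0.0195).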

How the data were processed

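Total RNA of sorted cTregs and eTregs was labelled with a whole-transcript kit and hybridised to 14 Clariom S mouse arrays. Per the labels, the authors summarised each transcript cluster by robust multi-array average (RMA) in Affymetrix Expression Console 1.1, a method that corrects background and makes arrays alike by quantile normalisation. The values deposited by the authors are on the log2 scale. Arrays thus have similar distributions (medians 8.77 to 8.90), so values show changes relative to other genes. Array scans were not used here.

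Of 28846 entries, 6640 were control probe sets and 3 had no gene symbol. The other 22203 were fitted without a signal filter by a linear model with 4 group means in limma 3.58.1 (R 4.3.3; the moderated variance had 5.65 prior and 10 residual degrees of freedom). Tests were two-sided, with Benjamini-Hochberg adjustment across these 22203. The study's threshold is an absolute log2 difference of at least 0.5 with an unadjusted P below 0.05. No test was run over the list of members, which is described by counts and medians. Control probes for background had medians of 6.00 to 6.30, and all group means of the 39 members were above them. The members, gene lists and named genes were chosen with earlier results of these data known. Every member may be named, and genes of the other lists where they passed the study's threshold or are Ifnar1, Ifnar2 and Ifnb1; the genes most like the members were ranked by correlation across 14 arrays. A sort marker and a signalling gene are not reported here. The number of arrays limits the precision. The model was tested on simulated data. Motifs were searched and plots drawn with Python 3.11.15, pandas and matplotlib. Alternatives were array medians or 75th percentiles subtracted, a filter at the 50th percentile of mean signal, array weights, a trended robust variance, fits of 2 groups, replicate blocks and each array left out.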

Additional observations from a re-analysis of the deposited data

Results flagged for a closer look

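In groups of 4 arrays, 3 values lay far from the others of their group by Dixon's test, out of 78 combinations of gene and group tested, where chance gives about 1 in 20. Samd9l read 10.92 in control cTreg 4, against 11.57 to 11.69 in the other control cTregs. Rtp4 read 9.41 in control cTreg 2, against 8.998 to 9.04. Isg15 read 9.92 in control eTreg 4, against 9.55 to 9.59. Groups of 3 arrays were not tested in this way.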

How the results depend on the processing

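Among the called genes no alternative turned a direction. Counts of called genes at the study's threshold moved as follows. With a filter at the 50th percentile of mean signal they were 4 between labels in eTregs, 1 between control subsets, 3 between subsets labelled KO, and 0 for the interaction, since 29 of the 39 genes were left. Of all transcript clusters kept, 1.52%, 4.03%, 5.19% and 2.2% were higher and 0.865%, 2.09%, 1.29% and 0.631% lower, in that order. Between labels 25 of these 29 genes were above 0 in eTregs (50.5% of all kept) and 24 in cTregs (48.4%). Array weights gave 5 called genes in eTregs, without Ifit1, Ifit2, Dhx58 and Oas2, where 2.87% of all transcript clusters were higher and 1.19% lower. Ifit2 also lost its call with array medians subtracted, and Oas1a between subsets labelled KO with array weights (0.48). Subtracting array medians gave 0 between labels in cTregs (0.14% of all transcript clusters were higher and 0.473% lower). It gave 4 between control subsets (2.83% and 1.86% of all). Subtracting 75th percentiles gave 2 between labels in cTregs (0.248% and 0.297% of all) and 1 for the interaction (1.51% and 1.61% of all). Leaving out KO eTreg 2 and 3 gave 3 between subsets labelled KO. With adjustment, array weights gave 1 in eTregs, the filter 1 between control subsets, and between subsets labelled KO the count of 1 became 0 (fit of 2 groups, array medians, without KO eTreg 2 and 3) or 2 (filter, array weights). The median interaction reversed to -0.0252 with array weights, and to -0.0288 and -0.000333 without KO cTreg 1 and without KO eTreg 2.

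With single arrays left out, counts at the study's threshold ran from 5 to 9 between labels in eTregs, 0 to 2 in cTregs, 2 to 5 between control subsets, 5 to 6 between subsets labelled KO and 1 to 4 for the interaction. Of all transcript clusters 1.42% to 3.62%, 0.189% to 0.423%, 2.94% to 3.6%, 4.06% to 6.54% and 1.35% to 3.95% were called higher, in the same order. Called lower were 0.788% to 1.36%, 0.284% to 0.991%, 1.33% to 1.76%, 1.15% to 2.4% and 0.901% to 2.49%. With adjustment the counts of members ran from 0 to 1, 0 to 0, 1 to 3, 0 to 2 and 0 to 1. Medians ran from 0.12 to 0.22, 0.07 to 0.17, -0.08 to -0.02, -0.07 to -0.00 and -0.03 to 0.10. Each member has 1 row, so the choice among rows of a gene changed nothing.

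Replicate numbers are shared by the groups. Deviations of arrays of 1 number correlated at 0.04 to 0.30, above 0.1 in 5 of 7 pairs, and those of different numbers at -0.31 to 0.12, above 0.1 in 1 of 18. Within its label, 12 of 14 arrays correlated best with their own number, a hint from the data, not the design. The labels do not tie numbers to mice and 2 pairs lay below 0.1, so the block was kept as an alternative. With the replicate block the adjusted count between subsets labelled KO was 3 (random, within label), 2 (fixed, across 4 groups) or 0 (fixed, within label), and no other count of called genes moved by over 1.5 times, although Rtp4 in cTregs fell under the fold threshold with the fixed block across groups (0.47). The number of arrays and the signal over background of low genes limit what is detectable.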
